A study of Mus musculus with 12 samples.

Results

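The antiviral type I interferon genes described here are 10 genes of the deposited count table, chosen by symbol: Isg15, Ifit1, Ifit2, Ifit3, Rsad2, Mx1, Oas1a, Oas2, Oas3 and Oasl2. They are 10 of 56832 gene entries, and all 10 were among the 15758 genes with enough counts to be tested. RNA sequencing had been done on macrophages sorted from mouse bone marrow, to compare these cells between healthy mice and mice with late leukemia. The sort kept cells positive for CD45 and F4/80 and negative for Ly6g and Ly6c. There were 4 groups of 3 libraries, healthy and leukemic mice of each sex. The leukemic mice had received transplanted cells of bcCML, a mouse model of blast-crisis chronic myeloid leukemia, were late in disease and were labelled day 11. The non-leukemic mice are described as healthy, and the labels name no transplant for them. Strain, age, and whether the 3 replicates were separate animals are not given in the sources used here, so every p-value measures the spread between libraries, which may be technical.

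Type I interferons, the alpha and beta interferons, bind a receptor on nearly all nucleated cells and activate the kinases Jak1 and Tyk2. The signal ends in the complex ISGF3, which holds Irf9 and binds interferon-stimulated response elements in the promoters of antiviral genes. Interferon gamma uses another receptor, and its target genes overlap with those of type I interferon only in part. In macrophages the 10 genes are widely used as a readout of type I interferon, and their products act on viral RNA, on membranes or on other proteins.

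The promoters are shown for the members whose levels the results turn on, because they place the same short sequence in genes that then behaved differently. The 250 bases upstream of each start site were taken from RefSeq (GRCm38.p6, an older build than the GRCm39 of the counts, so no position was carried over) and searched on both strands for the core of the response element, GAAANNGAAA, which reads TTTCNNTTTC on the other strand. A promoter was listed for 8 of the 10 genes, all but Mx1 and Oas2, and 6 of those 8 held a match: Isg15, Ifit1, Ifit3, Rsad2, Oas1a and Oas3. Ifit2 and Oasl2 had none in this window. Of all 27025 genes with a listed promoter, 3.46% held a match. In the lines that follow, read 5′ to 3′ on the gene's strand, capitals mark the matched bases, overlapping matches running together: Isg15 on chr4:156200850-156200921, Ifit1 on chr19:34640760-34640838, Rsad2 on chr12:26456538-26456597 and Oas1a on chr5:120907526-120907570.
Isg15: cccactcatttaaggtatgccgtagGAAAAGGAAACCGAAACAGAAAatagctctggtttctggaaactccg
Ifit1: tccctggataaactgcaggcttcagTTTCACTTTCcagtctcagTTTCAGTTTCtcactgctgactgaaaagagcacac
Rsad2: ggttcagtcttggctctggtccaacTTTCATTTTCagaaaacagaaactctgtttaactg
Oas1a: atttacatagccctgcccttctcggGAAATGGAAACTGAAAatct
Isg15 had 3 overlapping matches, Ifit1 had 2 separate ones, Rsad2 had 1, and Oas1a had 2 that overlapped within the last bases before the start site. A match describes these letters only and was not measured as a binding site.

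Total counts per library were 16911827 to 26611831 in non-leukemic and 22437689 to 30014855 in leukemic libraries, and the lowest count of any member in any library was 30, for Mx1 in female non-leukemic replicate 3. That count corresponds to 1.13 CPM (counts scaled to the library total), with an exact Poisson 95% interval of 0.761 to 1.61 CPM that covers counting error only. In female leukemic replicate 1, 17891 genes had a count, and each of the others had 19521 to 21247. The 11 macrophage markers summed to 4491 CPM in male non-leukemic replicate 3 and to 1192 to 1650 CPM in the 5 remaining healthy libraries. Results are therefore also given without these 2 libraries. The macrophage label was checked against those markers: all 11 were detected in both conditions, and 6 fell in leukemic libraries, where their sum was 491 to 1161 CPM. Of all tested genes, 9.20% were called lower. All 11 log2 fold changes were negative, with a median of -1.12. Without the 2 libraries 9 of the 11 markers fell, where 14.1% of all tested genes were called lower. None of the 11 rose in either fit. Despite the Ly6g-negative sort, 12 neutrophil markers summed to 27545 to 63400 CPM in non-leukemic and 12178 to 25889 CPM in leukemic libraries, so the libraries hold transcripts of more than macrophages.

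The first comparison, between the 2 conditions, asked how the antiviral genes stand in late leukemia, and the 2 that changed moved in opposite directions. Rsad2 fell 4.14-fold, from 128 ± 32.3 to 30.9 ± 8.50 CPM (mean ± SD, n = 6 per condition). Ifit1 rose 2.51-fold, from 9.40 ± 3.98 to 23.6 ± 8.12 CPM. The other 8, among them Isg15, did not pass the test, although Oas1a, Oas2 and Oasl2 had positive log2 fold changes of 0.79, 1.15 and 1.00. With edgeR's quasi-likelihood test and Benjamini-Hochberg adjustment over all genes, 1 of 10 members was higher and 1 lower at an adjusted p under 0.05, where 8.71% of all tested genes were higher and 9.20% lower. The median log2 fold change of the 10 was 0.39, with 7 positive and 3 negative values, against -0.01 for all genes tested. With 10 genes these counts are close to the background shares. In bulk RNA, fewer cells of a type and less RNA per cell cannot be told apart.

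**Figure D1:**
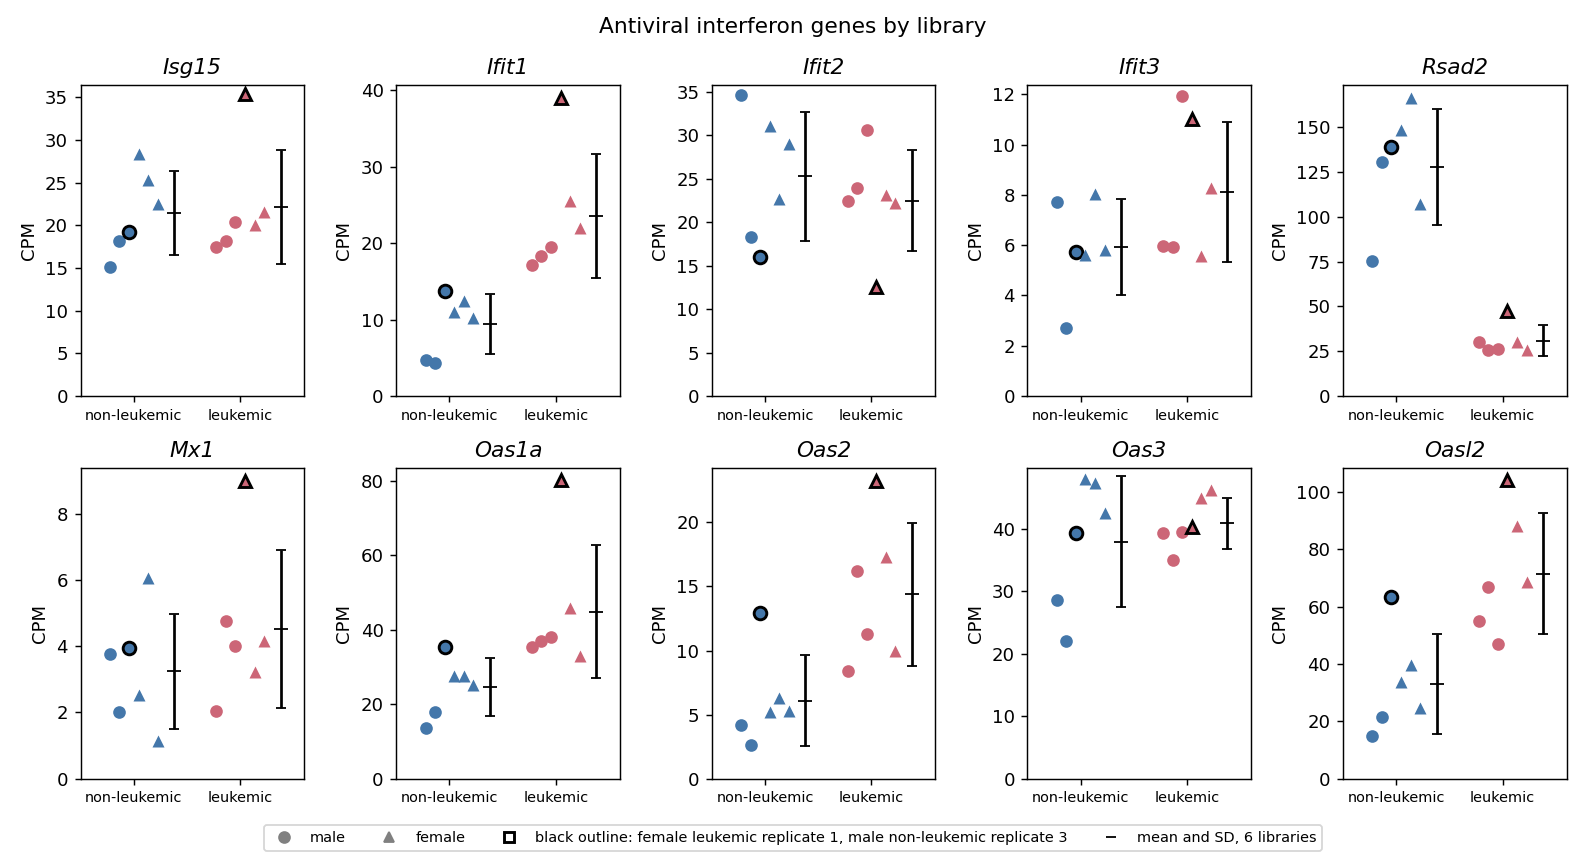
CPM of each of the 10 antiviral genes (linear axis from 0) in the 12 libraries, with circles for male and triangles for female libraries, and bars for the mean and SD of 6 libraries per condition. The conditions do not overlap for Rsad2 and Ifit1; a black outline marks the libraries that stood apart.

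Rsad2 encodes viperin, an enzyme at the endoplasmic reticulum that makes a chain-terminating nucleotide which stops viral polymerases. The male non-leukemic libraries had 75.5, 130 and 139 CPM and the female ones 149, 166 and 107 CPM. The male leukemic libraries had 30.3, 25.4 and 26.3 CPM, and the female leukemic libraries 47.6, 30.3 and 25.4 CPM. Every leukemic library was below every non-leukemic library. The 2 conditions were separated in this way, in either direction, for 8.68% of all tested genes. The log2 fold change of Rsad2 was -2.11 ± 0.22 (SE, edgeR adjusted p = 4.99e-05), and it was -2.19 without the 2 libraries named above. Leaving out each of the 12 libraries in turn kept it between -2.29 and -2.01.

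Cmpk2, the neighbour of Rsad2 on chromosome 12 in the RefSeq order, encodes a nucleotide kinase that is often induced together with viperin and supplies its substrate. Its levels were 59.2 to 124 CPM in non-leukemic and 63.1 to 85.0 CPM in leukemic libraries, so the conditions overlapped. Its log2 ratio was -0.49 ± 0.15 (edgeR adjusted p = 0.0359), beside -2.11 for Rsad2, a difference between the genes that was not tested. The Cmpk2 call held in 3 of the 12 fits that left out 1 library.

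The Ifit genes encode proteins that bind foreign or incompletely capped RNA ends, and lie in 1 cluster on chromosome 19. Ifit1 had 4.67, 4.38 and 13.8 CPM in male and 11.1, 12.4 and 10.1 CPM in female non-leukemic libraries. Male leukemic libraries had 17.1, 18.3 and 19.5 CPM, and female leukemic libraries 39.0, 25.5 and 22.02 CPM. All leukemic values were above all non-leukemic ones, the closest pair being 17.1 and 13.8 CPM. The log2 fold change of Ifit1 was 1.24 ± 0.30 (edgeR adjusted p = 0.0128), and it passed in each of the 12 fits that left out 1 library, with values of 1.07 to 1.61. Tested against a minimum change of 1.5-fold, it did not pass (adjusted p = 0.0924).

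Ifit2 and Ifit3, in the same cluster, did not pass. Ifit2 ran from 16.0 through a median of 25.8 to 34.7 CPM in non-leukemic libraries and from 12.5 through 22.8 to 30.6 CPM in leukemic ones, with a log2 fold change of -0.26 ± 0.22 (edgeR adjusted p = 0.467). Ifit3 ran from 2.72 through 5.77 to 8.04 CPM and from 5.58 through 7.12 to 11.9 CPM, at 0.39 ± 0.31 (adjusted p = 0.441). In both genes the conditions overlapped. Of the 50-base stretches of Ifit3 transcripts, 51.2% also occur in another gene, nearly all in the copy Ifit3b, so its counts depend on how shared reads were treated. Ifit2 shared none and Ifit1 shared 7.13%. Ifit1bl1, which lies between Ifit3 and Ifit3b in the same cluster, rose from 1.98 ± 1.37 to 8.21 ± 3.56 CPM, at 2.19 ± 0.46 (adjusted p = 0.00514), although its lowest leukemic library, at 2.92 CPM, was below the highest non-leukemic one, at 4.10 CPM.

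The Oas genes encode enzymes that sense double-stranded RNA and make 2′-5′ oligoadenylates, and Oasl2 belongs to the related OAS-like proteins. Oasl2 had 14.8, 21.6 and 63.3 CPM in male and 33.7, 39.7 and 24.7 CPM in female non-leukemic libraries. It had 55.1, 66.7 and 46.8 CPM in male and 104, 88.0 and 68.6 CPM in female leukemic libraries. A single non-leukemic library, male replicate 3, lay within the leukemic range. The log2 fold change was 1.00 ± 0.34 (edgeR adjusted p = 0.0622).

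Oas1a and Oas2 had the same arrangement of libraries. Oas1a ran from 13.5 through 26.3 to 35.5 CPM in non-leukemic and from 32.9 through 37.5 to 80.2 CPM in leukemic libraries, at 0.79 ± 0.28 (edgeR adjusted p = 0.0730). Oas2 ran from 2.60 through 5.24 to 12.9 CPM and from 8.37 through 13.8 to 23.3 CPM, at 1.15 ± 0.41 (adjusted p = 0.0709). In both, male non-leukemic replicate 3 was the highest of the 6 non-leukemic libraries. Without that library alone, all 3 genes passed, Oas1a at 1.07 (adjusted p = 0.00604), Oas2 at 1.66 (adjusted p = 0.00164) and Oasl2 at 1.47 (adjusted p = 0.000259). None of the 3 passed when any of the other 11 libraries was left out.

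Oas3, the largest of the OAS enzymes, did not pass. It ran from 21.9 through 40.9 to 47.9 CPM in non-leukemic and from 35.0 through 39.9 to 46.2 CPM in leukemic libraries. The leukemic values lay wholly within the non-leukemic range, with a log2 fold change of 0.05 ± 0.15 and a 95% interval of -0.27 to 0.38. Oas1a shares 57.6% of its 50-base stretches with other genes, in effect with its copy Oas1g, while Oas2 shares none and Oas3 shares 0.521%. Oas1g ran from 0.769 to 4.51 CPM in non-leukemic and 3.50 to 16.0 CPM in leukemic libraries, at 1.13 ± 0.45 (adjusted p = 0.109).

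Mx1 encodes a GTPase that blocks replication of influenza-like viruses, and many laboratory mouse strains carry a defective copy; the RefSeq table lists it as a transcribed pseudogene. It was the member with the lowest counts, at 1.13 through 3.15 to 6.04 CPM in non-leukemic and 2.03 through 4.07 to 9.0 CPM in leukemic libraries. The conditions overlapped, and the log2 fold change of 0.40 ± 0.46 had a 95% interval of -0.59 to 1.38. The family member Mx2, separated from Mx1 by Fam3b in the RefSeq order, is also listed as a transcribed pseudogene. Mx2 had 1.02 ± 0.576 and 1.63 ± 1.08 CPM and did not pass.

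Isg15 is a small ubiquitin-like protein that is attached to newly made proteins, including viral ones. Its libraries ran from 15.1 through 20.8 to 28.4 CPM in non-leukemic and from 17.4 through 20.2 to 35.4 CPM in leukemic mice. The medians were nearly equal, and the log2 fold change of -0.00 ± 0.19 had a 95% interval of -0.41 to 0.40. Of the 5 genes that attach or remove Isg15, 2 rose, 1 fell and 2 did not pass. Over all tested genes, 8.71% were called higher and 9.20% lower. Ube2l6, which carries Isg15 to its targets, fell from 312 ± 49.1 to 112 ± 45.1 CPM with no overlap, which is -1.56 ± 0.21 as a log2 ratio (edgeR adjusted p = 0.000279). Uba7, which activates Isg15, stood at 0.32 ± 0.10 (adjusted p = 0.0411), and Usp18, which removes Isg15 and also restrains the type I receptor, at 0.92 ± 0.27 (adjusted p = 0.0336). The calls of Uba7 and Usp18 held in 6 and 5 of the 12 fits that left out 1 library, and Usp18 was at 0.59 without female leukemic replicate 1. Both calls were lost with no sex term (adjusted p = 0.0937 for Uba7 and 0.0593 for Usp18). Herc6 and Trim25, the 2 other genes of this group, did not pass.

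**Figure D2:**
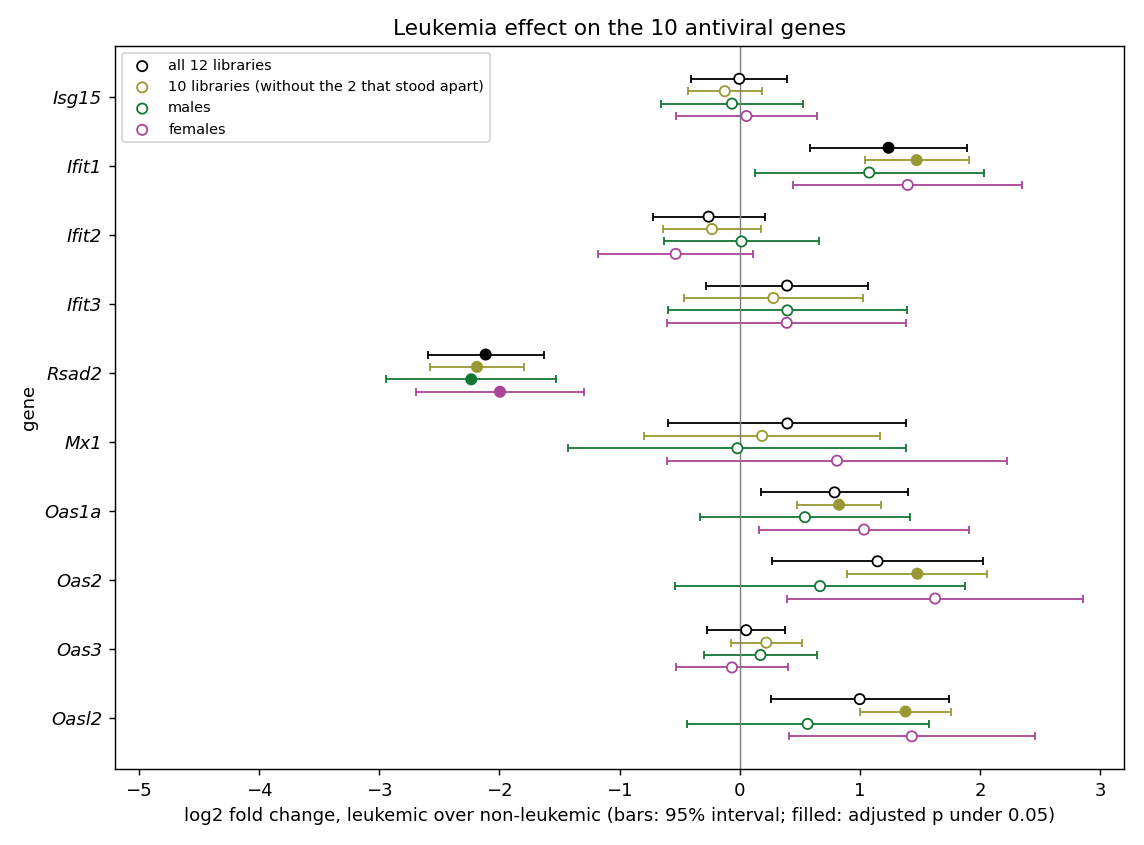
Log2 fold change, leukemic over non-leukemic, of the 10 antiviral genes from edgeR with 95% intervals, for all 12 libraries, for the 10 left without those that stood apart, and for each sex; filled points had an adjusted p under 0.05. Rsad2 is filled in all 4 and Ifit1 in the first 2, while Oas1a, Oas2 and Oasl2 are filled in the 10-library fit alone.

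Without both libraries that stood apart, 4 members were higher (Ifit1, Oas1a, Oas2 and Oasl2) and 1, Rsad2, was lower. In the same fit 14.9% of 16300 tested genes were higher and 14.1% lower, so the background rose too. The log2 fold changes were then 1.47 for Ifit1 (edgeR adjusted p = 0.00029), Oas1a 0.82 (adjusted p = 0.00267), Oas2 1.48 (adjusted p = 0.00179) and Oasl2 1.38 (adjusted p = 0.000213). Isg15, Ifit2, Ifit3, Mx1 and Oas3 passed in neither fit. Among the tools, DESeq2 on all 12 libraries called the same 4 members higher, and limma-voom called Ifit1, Oas2 and Oasl2.

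Levels between genes were compared per length as RPKM, which is CPM divided by the length of a gene's exons in kilobases, with exon lengths from GENCODE vM21. Oas1a and Ifit3 share 57.6% and 51.2% of their 50-base stretches with other genes. Their RPKM, and so their places among the genes, depend on how shared reads were treated, which is not given. In non-leukemic libraries Rsad2, at 29.5 ± 7.45, and Isg15, at 28.4 ± 6.46 RPKM, were the highest and did not differ beyond their spread. Oas1a followed at 13 ± 4.13 RPKM, and Ifit2, Oas3, Oasl2, Ifit1 and Ifit3 lay between 3.40 and 6.44 RPKM. Neighbours in that order had overlapping spreads, while those of Ifit2, at 6.44 ± 1.90, and Ifit3, at 3.40 ± 1.09, did not overlap. Oas2, at 1.36, and Mx1, at 0.856 RPKM, were the lowest. In leukemic libraries the order was Isg15 at 29.3 ± 8.84, Oas1a at 23.8 ± 9.47, Oasl2 at 11.2 ± 3.32, Ifit1 at 8.87 ± 3.06 and Rsad2 at 7.12 ± 1.96 RPKM. Rsad2 thus went from sharing the top level with Isg15 to a level within the spread of Ifit1, while the level of Isg15 stayed within its own spread.

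The 2 sexes were then taken apart, 3 libraries against 3, with the spread estimated over all 4 groups. Rsad2 was lower in both, with log2 fold changes of -2.23 ± 0.32 in males (edgeR adjusted p = 0.00167) and -2.00 ± 0.32 in females (adjusted p = 0.00377). It was the 1 member called in each sex, where 4.04% of all genes were lower and 3.34% higher in males, and 4.59% lower and 3.84% higher in females. Ifit1 did not pass in either sex alone, at 1.08 ± 0.44 in males (adjusted p = 0.174) and 1.40 ± 0.44 in females (adjusted p = 0.0723). Oas1a, Oas2 and Oasl2 had 0.54, 0.67 and 0.56 in males and 1.03, 1.62 and 1.43 in females, none of which passed.

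The difference between the sexes was tested directly as an interaction. None of the 10 genes passed, and neither did any other: 0% of 15758 genes were called by edgeR, with 925 at an unadjusted p under 0.05 and 23 called by DESeq2. For Rsad2 the female minus male difference was 0.24 ± 0.44, with a 95% interval of -0.72 to 1.20, and for Oasl2 it was 0.87 ± 0.65, with an interval of -0.56 to 2.29. Intervals of this width do not show that the sexes responded alike. Without the 2 libraries that stood apart, the Oasl2 difference was -0.34, with the opposite sign. Among non-leukemic libraries, Oas3 had 28.5, 21.9 and 39.3 CPM in males and 47.9, 47.3 and 42.5 CPM in females, and Isg15 had 15.1, 18.2 and 19.2 CPM in males and 28.4, 25.3 and 22.5 CPM in females. The female values were above the male values in both genes, a comparison that was not tested. They are 2 of the 10 members, and the share of all genes that separates the sexes in this way was not computed. No sex difference can be read from them. In leukemic libraries the 2 sexes overlapped for Isg15, with 17.4, 18.1 and 20.4 CPM in males and 35.4, 20.1 and 21.5 CPM in females. For Oas3 the leukemic females, at 40.3, 45.0 and 46.2 CPM, were again above the males, at 39.3, 35.0 and 39.4 CPM.

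**Figure D3:**
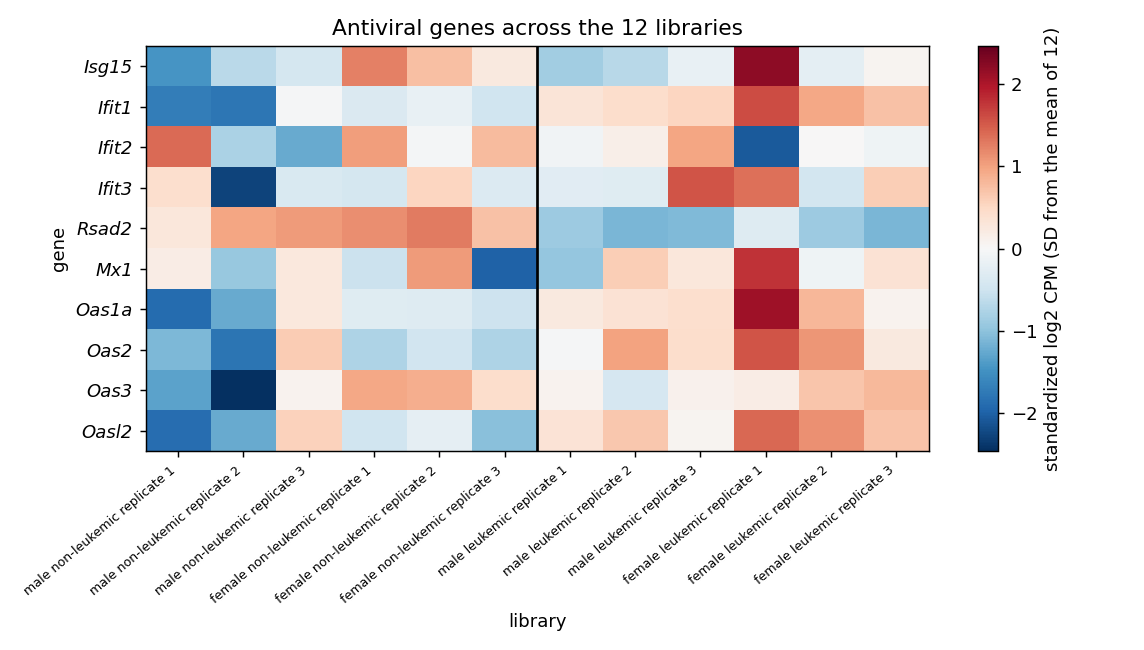
Log2 CPM of the 10 antiviral genes (rows) in the 12 libraries (columns), standardized per gene to SD units from its mean, with non-leukemic libraries left of the line. Female leukemic replicate 1 holds the highest value of all 12 libraries in 6 rows. In the Rsad2 row every non-leukemic value is above every leukemic one.

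Across libraries the members rose and fell partly together. Female leukemic replicate 1 had the highest leukemic level of 7 of the 10 genes and the highest of all 12 libraries for 6. It also had the lowest level of Ifit2, at 12.5 CPM. Male non-leukemic replicate 3 had the highest non-leukemic level of 4 genes, and male non-leukemic replicates 1 and 2 each had the lowest non-leukemic level of 4. The share that depth, RNA quality or other cells had in these library differences was not tested.

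The log2 CPM of every gene were standardized over the 12 libraries and compared with the mean profile of the 10 members by root mean square distance, a description of likeness in which small is alike. Ifit1, Oas1a and Oas2 were the members nearest to the mean, at 0.43, 0.51 and 0.57 SD units. Each member is itself part of that mean, so short distances of members are partly built in. Rsad2 and Ifit2 were the farthest, both at 1.55, above the median of 1.43 over all tested genes. The nearest gene outside the 10 was Irf7, the interferon-induced factor that amplifies type I interferon production, at 0.25. Oas1g followed at 0.37, then Letmd1, Abhd11, Mfsd10, Prr5l, Usp18 and Gm3076 at 0.41 to 0.48. Irf7 itself ran from 40.5 to 113 CPM in non-leukemic and 70.7 to 173 CPM in leukemic libraries and did not pass (0.34 ± 0.25, edgeR adjusted p = 0.405).

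The 8 genes whose profile over the 12 libraries lay nearest to that of Rsad2 were listed in a search added after its values were seen. They were the globin genes Hba-a2, Hbb-bs and Hba-a1 at distances of 0.17, 0.20 and 0.21, with Hbb-bt, Gpx1, Alas2, Marchf2 and Serpinb6a following. Among the interferon-induced genes, Ube2l6 ranked 13 at 0.29 and Isg20 ranked 104 at 0.44. Hbb-bs, a beta globin, ran from 5330 to 8203 CPM in non-leukemic and 191 to 509 CPM in leukemic libraries. These distances hold the difference between conditions. With each condition's mean removed, Hbb-bs ranked 70 and Oas1a ranked 46 in likeness to Rsad2 among 15757 genes, and Isg15 ranked 138. All 7 erythroid markers fell with Rsad2, their sum going from 11052 to 14583 CPM in non-leukemic down to 427 to 971 CPM in leukemic libraries. Of 12 neutrophil markers, 7 fell as well, where 9.20% of all tested genes were called lower. No marker of either list was at 0. The part of these cells in the Rsad2 result was not tested.

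**Figure D4:**
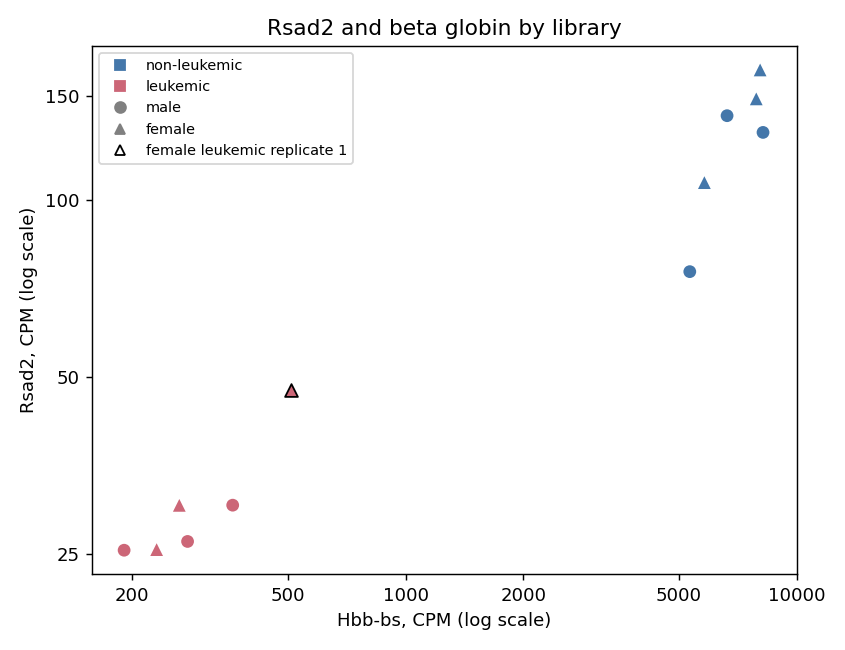
Rsad2 CPM against Hbb-bs CPM (both log axes) in the 12 libraries, blue for non-leukemic and red for leukemic, circles for male and triangles for female. The conditions form separate groups, and within the leukemic group female leukemic replicate 1 is highest on both axes, at 509 CPM of Hbb-bs and 47.6 CPM of Rsad2.

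The wider interferon pathway was described from further gene lists. Of 20 type I and type III interferon genes, none passed the filter and 18 had 0 counts in every library, Ifnb1 among them. By counting error alone this leaves room for 0.1 to 0.177 CPM, depending on the library. How far these genes share reads with other genes was not examined, and the treatment of shared reads is not given, so a count of 0 does not show absence. Ifnz had 4 counts in male non-leukemic replicate 1, 7 in female non-leukemic replicate 3 and 1 in female leukemic replicate 3, and Ifna2 had 1 count in that last library. Counts this low allow no comparison between the conditions. Ifng, the gene of interferon gamma, ran from 1.25 to 4.11 CPM in non-leukemic and from 10.6 to 42.1 CPM in leukemic libraries. Every leukemic library was above every non-leukemic one, at a log2 fold change of 3.26 ± 0.43 (edgeR adjusted p = 0.000226).

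The receptor genes of type I interferon, Ifnar1 and Ifnar2, had log2 fold changes of 0.24 ± 0.15 and -0.21 ± 0.14, and neither passed with edgeR. Stat2 stood at 0.05 ± 0.17 and Irf9 at 0.20 ± 0.13, and they did not pass either. Without the 2 libraries that stood apart, Tyk2, a kinase bound to the receptor, rose by 0.63 (adjusted p = 0.000513) and Ifnar1 by 0.50 (adjusted p = 0.00191); with all 12 libraries Tyk2 had 0.35 ± 0.17 and did not pass.

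The GTPases induced chiefly by interferon gamma, which attack the vacuoles of intracellular microbes, had the highest median of the interferon lists. Of 17 tested, 15 rose and none fell, where 8.71% of all tested genes were called higher and 9.20% lower. Their log2 fold changes had a median of 1.90 against 0.39 for the 10 antiviral genes. The difference between the lists was not tested. Iigp1 went from 4.87 ± 1.14 to 51.6 ± 10.03 CPM, at 3.34 ± 0.21 on a log2 scale (edgeR adjusted p = 9.47e-07). Tgtp2 had 2.37 ± 0.18 (adjusted p = 5.17e-06) and Gbp2 had 2.30 ± 0.17 (adjusted p = 3.45e-06), and Irf1, the factor that carries much of the gamma response, had 1.10 ± 0.15 (adjusted p = 0.000363). All 10 GTPase genes with a listed promoter held the GAAANNGAAA letters in the same window, so this match was present in genes that rose, in Rsad2, which fell, and in Isg15, which did not pass.

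**Figure D5:**
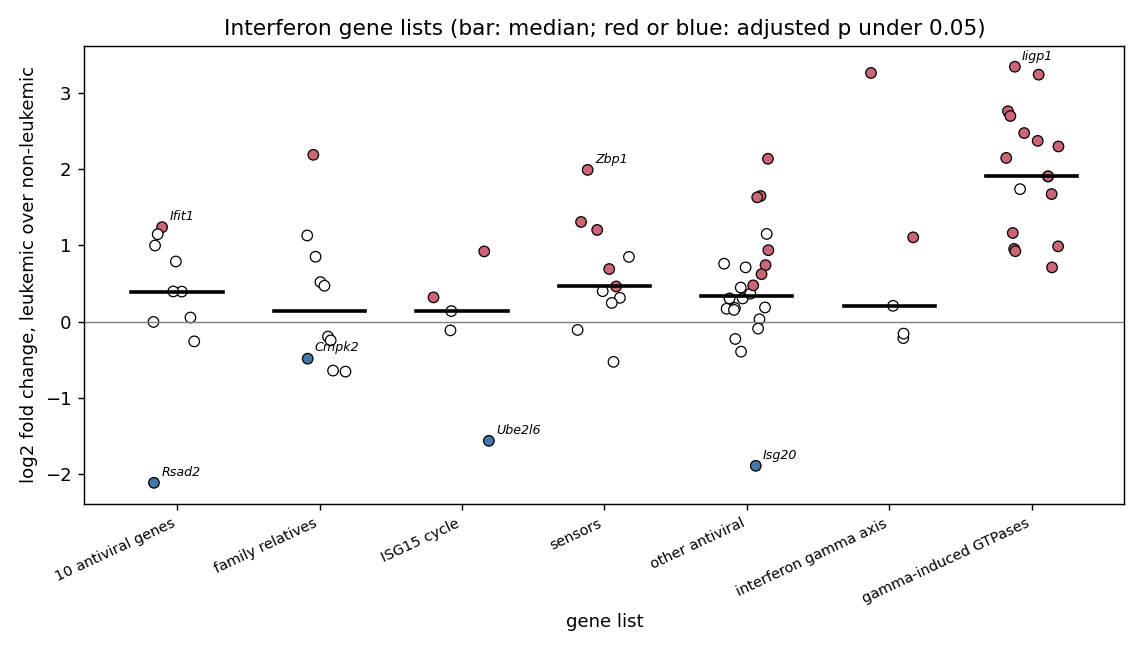
Log2 fold change, leukemic over non-leukemic, of every tested gene in 7 interferon lists; each point is a gene, red or blue where the edgeR adjusted p was under 0.05, and the bar is the list's median. The 10 antiviral genes spread around a median of 0.39, from Rsad2 at -2.11 to Ifit1 at 1.24, while the gamma-induced GTPases sit at a median of 1.90.

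Sensors of foreign nucleic acid rose in 5 of 11 genes and fell in none, with a median of 0.46. Over all tested genes, 8.71% were called higher and 9.20% lower. Zbp1, a sensor of Z-form nucleic acid, rose from 15.2 ± 4.15 to 63.6 ± 11.8 CPM (1.99 ± 0.22, edgeR adjusted p = 7.76e-05), and Sting1, the adaptor for cytosolic DNA sensing, rose by 1.20 ± 0.26 (adjusted p = 0.00621). Of 24 other antiviral genes, 7 rose and 1 fell, with a median of 0.33. Without the 2 libraries that stood apart 14 rose and 2 fell, where 14.9% of all tested genes were higher and 14.1% lower. With all 12 libraries, Ifi205 had 2.14 ± 0.29 (edgeR adjusted p = 0.000296) and Ifi44 had 1.63 ± 0.24 (adjusted p = 0.00048). The gene that fell was Isg20, an exonuclease of viral RNA, from 190 ± 55.2 to 53.8 ± 15.0 CPM, at -1.89 ± 0.19 (adjusted p = 3.26e-05). Its fall, like those of Rsad2 and Ube2l6, separated all leukemic from all non-leukemic libraries.

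The 14 relatives of the members held 10 tested genes, of which Ifit1bl1 rose, Cmpk2 fell and 8 did not pass, with a median of 0.14. Over all tested genes 8.71% were called higher and 9.20% lower, so 1 of 10 in each direction is near the background, and the Cmpk2 call held in only 3 of the 12 fits without 1 library. Oas1d, Oas1f and Oas1h had 0 counts in all 12 libraries, which by counting error alone again allows 0.1 to 0.177 CPM. Oas1e had 9 and 16 counts in male non-leukemic replicates 2 and 3 and 0 in the other libraries. Of the rest, Oas1b had a log2 fold change of -0.64 ± 0.39, Oas1c of -0.66 ± 0.35 and Oasl1 of -0.20 ± 0.17. Ifit1bl2 had 0.52 ± 0.64, Ifit3b 0.85 ± 0.65 and Mx2 0.47 ± 0.52.

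Markers of other cells moved in the same comparison, in which 8.71% of all tested genes were called higher and 9.20% lower. All 11 T and NK cell markers rose, their sum going from 300 to 594 CPM in non-leukemic to 1262 to 2553 CPM in leukemic libraries, with female leukemic replicate 1 the highest. These cells are a main source of interferon gamma. Of 9 eosinophil, basophil and mast cell markers, 5 rose and 1 fell. Of 7 markers of plasmacytoid dendritic cells, the main producers of type I interferon, 2 fell and 5 did not pass. Siglech fell from 39.2 ± 9.57 to 17.2 ± 6.18 CPM and Ccr9 from 16.0 ± 7.09 to 8.73 ± 1.53 CPM. In the whole list 4 log2 fold changes were positive and 3 negative, with a median of 0.04. The list's sum overlapped at 195 to 306 and 183 to 270 CPM. No marker of these 3 lists was at 0 in all libraries. Which cells carried the interferon transcripts was not tested.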

How the data were processed

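Gene counts were analysed for 12 libraries of sorted marrow macrophages, in 4 groups of 3 by labelled sex and condition. The authors deposited unnormalized counts, 1 column a library. Per the submitters' processing notes the tools were STAR 2.7.9a, featureCounts, Subread 2.0.1, fastp 0.23.1, bcl2fastq 2.19.1, R 4.0.2 and DESeq2 1.28.1, with the build GRCm39 and no role, order or settings; the annotation and the treatment of shared reads are not given in the sources used here. Per the labels' protocols, 1 ng of RNA was pre-amplified with a SMARTer kit and tagmented, which marks neither strand nor single molecules, so overlapping genes could not be separated and counting intervals cover counting error only.

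The members and gene lists were chosen with earlier results of these data known. Genes were filtered with filterByExpr over the 4 groups, library sizes were scaled by TMM (trimmed mean of M values), and the robust quasi-likelihood F test of edgeR 4.0.16 (R 4.3.3) was run with sex as a term. Effects in each sex and the interaction came from 4 group means. P-values were two-sided and adjusted by Benjamini and Hochberg over all genes tested, with a threshold of 0.05, and SE was the log2 fold change divided by the square root of F. CPM were computed by dividing each count by the library's total, with a prior count of 2 for log2 values. The alternatives tried were DESeq2 1.42.0, RLE (relative log expression) size factors, limma-voom (limma 3.58.1), no filter, 5 CPM in 3 libraries, a 1.5-fold minimum change, a replicate block, no sex term, only the 6 libraries compared, and leaving out libraries. A count of 0 was taken to allow 3 counts. Libraries of a group differed by a chi-square of at least 24.7 per degree of freedom, so none was counted as a copy. The scripts were tested on simulated data.

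Named in the text were all members and relatives, the 3 genes with the lowest p of each other pathway list, and the 8 genes nearest to the mean member profile; the remaining named genes were chosen after their values were seen. Results of some listed genes are not reported here.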

Additional observations from a re-analysis of the deposited data

Results flagged for a closer look

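For each member and condition the highest and lowest of the 6 libraries were set against Dixon's 95% critical value, in 20 groups of 6 values, where chance alone marks about 1 in 20. There were 4 such values. Female leukemic replicate 1 stood above the other leukemic libraries for Isg15 (35.4 CPM against 17.4 to 21.5), for Rsad2 (47.6 CPM against 25.4 to 30.3) and for Oas1a (80.2 CPM against 32.9 to 45.8). Male non-leukemic replicate 3 stood above the other non-leukemic libraries for Oas2 (12.9 CPM against 2.60 to 6.29).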

How the results depend on the processing

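Over the alternatives for the effect in both sexes together, Rsad2 was called lower in all 21 and Ifit2, Ifit3, Oas3 and Isg15 were called in none of the 21. Mx1 was called in none of 20 and was not tested with 5 CPM in 3 libraries. The count of members called higher, 1 as reported, was 4 with DESeq2, 3 with limma-voom, 2 with a filter of 5 CPM in 3 libraries, 2 with no sex term, 0 against a minimum change of 1.5-fold, and 1 to 4 when libraries were left out, 4 of them without male non-leukemic replicate 3. Genes called went from 2822 to 978 against the 1.5-fold minimum, and ranged from 2108 to 4717 when libraries were left out (3910 without female leukemic replicate 1 alone, 4717 without both libraries). In females the count of members called higher was 0 as reported, 3 with DESeq2, 2 with limma-voom, 1 with 5 CPM in 3 libraries, 2 when only the 6 libraries compared were fitted, and 0 to 3 when libraries were left out; in males it was 0 to 4 when libraries were left out. Genes called in males went from 1162 to 2053 with DESeq2 and 495 against the minimum change, and in females from 1328 to 2359 and 477. With libraries left out, the count in males was 513 to 2728: 732 without male non-leukemic replicate 2, 604, 513 and 536 without male leukemic replicates 1, 2 and 3, 2087 without female leukemic replicate 1 and 2728 without both libraries. In females it was 504 to 2368: 504, 682 and 710 without female non-leukemic replicates 1, 2 and 3 and 2368 without both libraries. The causes of these differences were not tested.

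Signs turned only for log2 fold changes that had not passed. Isg15 was 0.0087 with RLE, 0.0090 with DESeq2, 0.016 with no filter, 0.015 with 5 CPM in 3 libraries and 0.0061 with no sex term, and -0.17 to 0.10 when libraries were left out; Oas3 was -0.051 to 0.22. In males, Mx1 was 0.013 with no filter and 0.0072 in the 6 libraries alone. With libraries left out in males, Mx1 was -0.28 to 0.28, Isg15 -0.16 to 0.084, Ifit2 -0.16 to 0.44, Ifit3 -0.0075 to 0.73 and Oas3 -0.030 to 0.50. In females Isg15 was -0.0070 with limma-voom and -0.33 to 0.29 when libraries were left out, and Oas3 was -0.081 to 0.0034. For the difference between the sexes, Ifit3 was 0.0096 with RLE, 0.010 with DESeq2 and 0.039 with 5 CPM in 3 libraries. When libraries were left out, that difference was -0.46 to 0.44 for Ifit3, -0.42 to 0.34 for Isg15, -0.90 to 0.62 for Ifit1, -0.39 to 0.50 for Rsad2, -0.080 to 1.65 for Mx1, -0.64 to 0.79 for Oas1a, -0.49 to 1.34 for Oas2 and -0.34 to 1.25 for Oasl2.

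With the replicate number as a block, 1 member was higher and 1 lower, and 2509 genes were called; Usp18 (adjusted p = 0.0628) and Uba7 (adjusted p = 0.0679) were no longer called. Same-numbered non-leukemic and leukemic libraries of a sex were correlated after each group's mean was removed. The correlation was -0.03 to 0.06 over 6 pairs, with 0 of them over 0.1. In 4 of the 6 the best match had the same number. Values this small do not settle whether the numbers pair samples. Depth limits Mx1 most, with 30 counts in 1 library.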
